A study of Mus musculus with 6 samples.

Results

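The leukocyte integrins described here are 10 genes, Itgam, Itgb2, Itgal, Itgax, Itga4, Itga6, Itgav, Itgb1, Itgb5 and Itgb7, taken by symbol from the 35237 genes of the deposited Cufflinks table. All 10 were also found among the 36536 genes of the ALEXA-Seq table, which was made from the same libraries. By Cufflinks 9 of the 10 reached the minimum for testing, 3 FPKM in at least 1 library, and Itgax did not. FPKM are fragments scaled by the length of the transcript and by the number of mapped fragments.

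RNA-Seq compared bone marrow monocytes (BMDM) with brainstem microglia (BSM), in 3 libraries of each. The question was which genes, those of surface proteins above all, mark one cell type against the other. Both cell types came from C57BL/6 mice at 6 weeks of age, and each library came from cells pooled over several mice. In each cell type the labels give replicate 1 as male and replicates 2 and 3 as female. BMDM were sorted as CD11b+ CD45high CD115+ Ly6G- cells and BSM as CD11b+ CD45low CD115low Ly6G- cells, without culture. CD11b is the protein of Itgam, so 1 of the 10 members was a gate that both cell types had to pass. The word BMDM is the study's name for freshly sorted marrow monocytes.

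Integrins are surface receptors made of 1 alpha and 1 beta chain. The alpha chain does much to set the ligand, the beta chain couples to talin and kindlin inside the cell, and a pair reaches the surface only when both chains are made. On leukocytes the beta 2 integrins bind ICAMs and complement, alpha 4 integrins bind VCAM-1, fibronectin and MAdCAM-1, and alpha v and alpha 6 integrins bind vitronectin and laminin among other matrix proteins. Only transcripts were measured here, so pairs are given as their chains and not as surface receptors.

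The promoters of 7 of the 10 members were matched by symbol in RefSeq (GRCm38.p6). Those of Itgb2, Itgal and Itga6 were not. Printed below are the 250 bases before the start of Itgam, the sort marker, of Itga4 and Itgb7, the chains of the alpha 4 beta 7 integrin, and of Itgav and Itgb5, the chains of the alpha v beta 5 integrin. They lie at chr7:128062390-128062639, chr2:79255176-79255425, chr2:83724147-83724396 and chr16:33829415-33829664 on the plus strand and at chr15:102231936-102232185 on the minus strand. Each is written 5′ to 3′ in the direction of its gene. Capitals mark a purine-rich box (GAGGAA or, on the other strand, TTCCTC) and a GC box (GGGCGG or CCGCCC). The letters of these motifs do not overlap each other in these windows.
Itgam: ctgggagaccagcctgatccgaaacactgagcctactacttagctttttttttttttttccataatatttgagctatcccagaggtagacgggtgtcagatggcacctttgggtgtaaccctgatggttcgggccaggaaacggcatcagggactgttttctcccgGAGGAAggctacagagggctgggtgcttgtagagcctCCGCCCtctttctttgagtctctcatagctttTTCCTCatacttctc
Itga4: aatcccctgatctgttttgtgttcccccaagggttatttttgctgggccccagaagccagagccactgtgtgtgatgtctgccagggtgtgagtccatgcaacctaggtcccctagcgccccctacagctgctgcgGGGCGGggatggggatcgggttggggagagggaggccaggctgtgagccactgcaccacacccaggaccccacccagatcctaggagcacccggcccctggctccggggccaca
Itgb7: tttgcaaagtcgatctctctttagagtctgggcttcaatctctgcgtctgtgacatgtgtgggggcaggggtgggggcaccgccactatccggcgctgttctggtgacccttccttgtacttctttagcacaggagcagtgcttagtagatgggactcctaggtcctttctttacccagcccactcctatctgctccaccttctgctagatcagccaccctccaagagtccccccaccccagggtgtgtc
Itgav: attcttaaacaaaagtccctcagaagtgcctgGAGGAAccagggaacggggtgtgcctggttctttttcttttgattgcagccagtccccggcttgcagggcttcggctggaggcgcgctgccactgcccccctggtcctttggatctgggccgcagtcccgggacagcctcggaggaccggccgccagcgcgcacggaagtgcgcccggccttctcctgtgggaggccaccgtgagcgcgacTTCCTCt
Itgb5: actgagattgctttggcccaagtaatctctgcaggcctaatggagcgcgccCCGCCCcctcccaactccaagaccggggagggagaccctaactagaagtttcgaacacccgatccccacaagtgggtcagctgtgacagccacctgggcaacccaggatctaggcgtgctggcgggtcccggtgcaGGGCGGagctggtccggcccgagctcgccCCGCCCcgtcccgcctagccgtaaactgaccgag

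The Itgam window holds 2 purine-rich boxes, which begin 84 and 15 bases before the start, and 1 GC box. The Itgav window holds 2 purine-rich boxes, beginning 218 and 7 bases before the start, and no GC box. Itga4 has 1 GC box, Itgb5 has 3, and Itgb7 has neither motif. Among 32536 promoter windows of the same length 23.4% hold a purine-rich box and 33.0% a GC box. A TATA box, searched as TATAAA or TTTATA, stands in 12.3% of them and in none of the 7 matched members. These are letters found in a window and were not tested as binding sites.

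The labels of the libraries were checked against marker lists. The summed FPKM of 6 monocyte markers lay between 672 and 861 in BMDM and between 0.922 and 1.60 in BSM, with Ly6c2 at 0 in every BSM library. The sum of 8 microglia markers lay between 17.6 and 19.2 in BMDM and between 748 and 826 in BSM. Of 10 granulocyte markers, 4 reached an FPKM of 1 in every BMDM library. Their sum ran from 60.9 to 352 in BMDM, highest in replicate 2 (Mpo 181 and Ngp 77.1 FPKM there), and did not exceed 0.116 in BSM. The sum of 10 lymphocyte markers ran from 0.674 to 8.94 in BMDM and from 0.317 to 0.726 in BSM. Sums of endothelial markers were 2.37 to 3.88 and 1.31 to 2.92, and sums of platelet markers 0.725 to 7.05 and 0.0874 to 0.329. Perivascular macrophage markers summed to 113 to 159 in BMDM, where the monocyte transcript F13a1 is on the list, and to 2.08 to 4.79 in BSM. Dendritic cell markers, which include the microglial transcript Siglech, summed to 7.61 to 13.4 in BMDM and 85.7 to 90.9 in BSM. Oligodendrocyte markers summed to 7.06 to 12.8 and 1.78 to 2.13, astrocyte markers to 0.259 to 0.397 and 5.42 to 9.54, and neuron markers to at most 0.0969 and 0.249. In BMDM the oligodendrocyte sum was mostly Mbp and Cnp, with Mog, Mobp, Cldn11 and Olig1 at 0 in every library. In BSM the astrocyte sum was mostly Slc1a3 (9.51, 5.18 and 6.71 FPKM), with Gfap at 0 in every library. Among tested genes 472 (7.42%) were listed at 0 in BSM replicate 1, against 51 to 115 in each other library. The study lists for this library the lowest RNA integrity and concentration of the 6, and the part of RNA quality in its values was not tested. In these bulk samples fewer cells of a type and less RNA per cell cannot be told apart.

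Of the 9 members tested by limma on log2(FPKM + 1), 4 were higher in BMDM (Itgb2, Itgal, Itga4, Itgb7) and 3 were higher in BSM (Itga6, Itgav, Itgb5) at a Benjamini-Hochberg adjusted p under 0.05. Itgam and Itgb1 did not pass. The background over all 6364 tested genes was 45.3% called higher in BMDM and 9.22% called higher in BSM. For 8 of the 9 members the libraries of the cell types did not overlap, beside 66.8% of all tested genes. Itgal, Itga4, Itgb7 and Itgb5 reached the FPKM minimum only through the cell type where they were high, so their lack of overlap adds no support. The ALEXA-Seq values, tested over as many genes, called the same 4 and 3 members, beside 37.1% and 10.9% of all genes, and 7 of 9 members did not overlap, beside 66.1%. The counts of 4 and 3 also held without BMDM replicate 2, the library with the most granulocyte transcript, and without every other library in turn. The part of granulocyte and lymphocyte transcripts in the single values was not tested.

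The scale of the libraries matters for these values, as the FPKM sum of a library was 163199 to 194184 in BMDM and 68288 to 75021 in BSM. Log2 fold changes are given as BMDM minus BSM, with their standard error (SE), and over all tested genes their median was 0.81 by FPKM and 0.84 by ALEXA-Seq. This median was 0.14 with upper quartile scaling, 0.02 with quantile normalization and -0.23 with every library scaled to the same sum of FPKM. The calls over all tested genes moved with it, to 21.7% in favor of BMDM and 16.5% in favor of BSM with upper quartile scaling, 21.7% and 19.3% with quantile normalization and 15.2% and 24.9% with the same sum. Of the members 4 and 3 were called under upper quartile scaling and quantile normalization, and 3 and 3 under the same sum. Differences relative to this median are given where they bear on a member. A log2 fold change is on the log2(value + 1) scale throughout and understates the change of weakly expressed genes, more so in FPKM than in the larger ALEXA-Seq values.

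**Figure D1:**
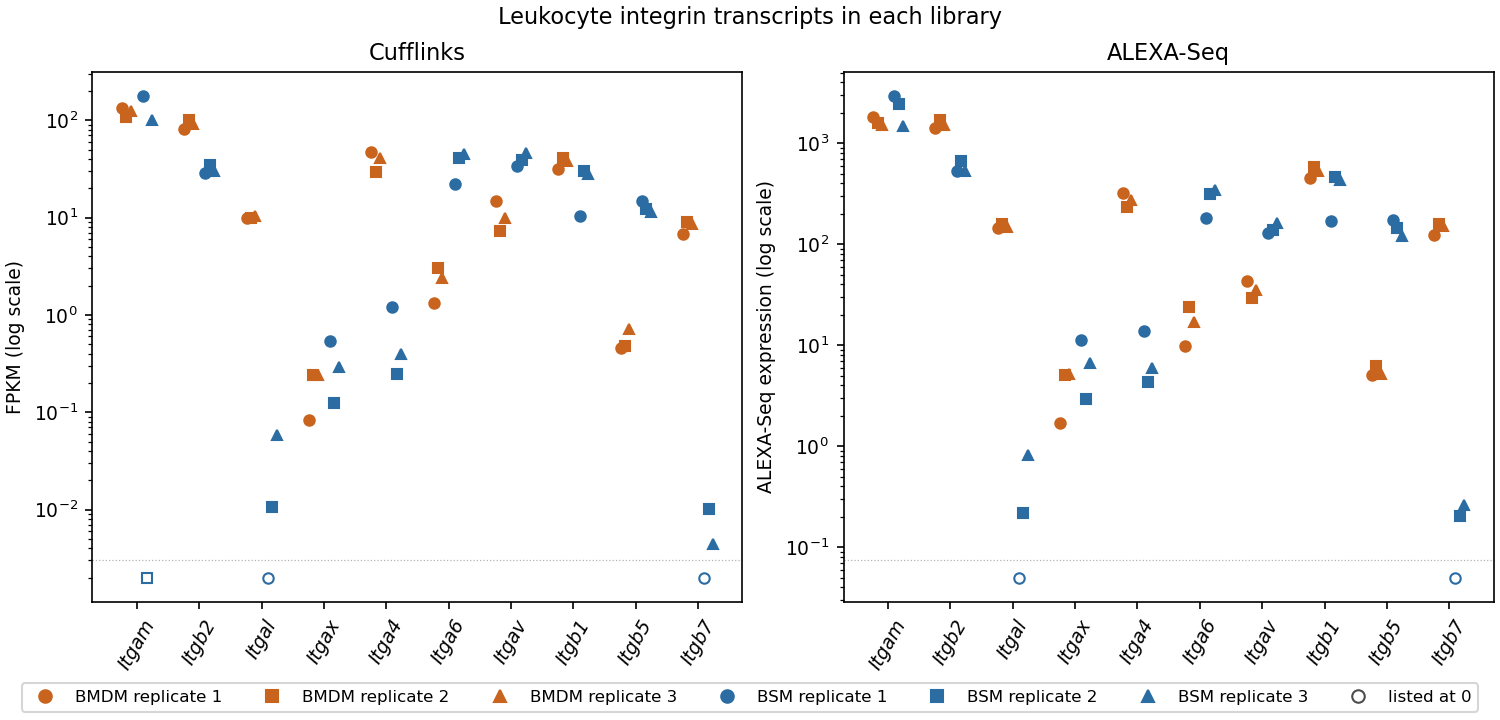
Level of each leukocyte integrin in every library, as FPKM from Cufflinks (left) and as ALEXA-Seq value (right), on log axes; color gives the cell type, marker shape the replicate, and open markers under the dotted line a value of 0. Itgal, Itga4 and Itgb7 are high in all 3 BMDM libraries and low in all 3 BSM libraries, Itga6, Itgav and Itgb5 are the other way round, and Itgam has its single 0 in BSM replicate 2 by Cufflinks only.

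Itgam (chr7:135206154-135271674 in mm9, as are all gene positions below, plus strand) encodes alpha M, which with beta 2 forms the complement receptor CR3. Its FPKM was 132, 109 and 124 in BMDM replicates 1, 2 and 3 and 176, 0 and 100.5 in BSM replicates 1, 2 and 3. The 0 stands against an ALEXA-Seq value of 2435 in the same library. It was the only gene listed at 0 in BSM replicate 2 that had at least 10 FPKM in both other BSM libraries. The ALEXA-Seq values of Itgam were 1819.6, 1597 and 1521 in BMDM and 2909.6, 2435 and 1479 in BSM, so the cell types overlapped in both tables. By FPKM the log2 fold change was 2.22 (SE 1.71, adjusted p = 0.296, limma), and without BSM replicate 2 it was -0.13 (limma adjusted p = 0.754). By ALEXA-Seq it was -0.41 (SE 0.28, adjusted p = 0.245, limma). Relative to the median of all tested genes the ALEXA-Seq difference was -1.25. Itgam was called higher in BSM when the ALEXA-Seq values were quantile normalized (log2 fold change -1.24, limma adjusted p = 0.00793) or scaled to the same sum (-1.70, limma adjusted p = 0.00313). In GENCODE M21 73.8% of the longest Itgam transcript is shared with an overlapping gene model on the same strand, Gm49368, whose part in the value of 0 was not tested.

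Itgb2 (chr10:76992997-77028453, plus strand) encodes beta 2, or CD18, the chain that Itgam, Itgal and Itgax products pair with. It was at 82.0, 101 and 92.1 FPKM in BMDM and at 28.4, 34.6 and 29.9 FPKM in BSM. Every BMDM library lay above every BSM library, and the mean FPKM was 91.8 ± 9.71 (SD, n = 3) against 31.0 ± 3.26 (SD, n = 3), a ratio of 2.96. By FPKM this was a log2 fold change of 1.54 (SE 0.21, adjusted p = 0.000772, limma), of which 0.73 remained relative to the median of all tested genes. By ALEXA-Seq it was 1.43 (SE 0.18, adjusted p = 0.000980, limma). With every library scaled to the same sum the difference was 0.24 (limma adjusted p = 0.302) by FPKM and 0.14 (limma adjusted p = 0.515) by ALEXA-Seq, so this call depended on the scaling.

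Itgal (chr7:134439774-134478651, plus strand) encodes alpha L, which with beta 2 forms LFA-1, a receptor for ICAMs. Its FPKM was 9.91, 9.94 and 10.4 in BMDM and 0, 0.0106 and 0.0582 in BSM. The BMDM libraries lay close together and far above all BSM libraries. This gave a log2 fold change of 3.44 (SE 0.22, adjusted p = 2.09e-05, limma) by FPKM and 6.86 (SE 0.43, adjusted p = 6.56e-05, limma) by ALEXA-Seq, where the values were 145, 158 and 149.5 in BMDM and 0, 0.220 and 0.820 in BSM. Itgax (chr7:135273061-135294170, plus strand), which encodes alpha X, or CD11c, a chain used to mark dendritic cells, was low in both cell types. It was at 0.0826, 0.239 and 0.244 FPKM in BMDM and 0.540, 0.123 and 0.289 FPKM in BSM, with overlap. When genes of any level were included its log2 fold change was -0.14 (SE 0.14, adjusted p = 0.534, limma).

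Within the beta 2 family the ratio of Itgam to Itgb2 was higher in BSM by ALEXA-Seq and overlapped between the cell types by FPKM. Taking the ALEXA-Seq values, which have no 0 for Itgam, the ratio of Itgam to Itgb2 was 1.29, 0.936 and 1.01 in BMDM and 5.49, 3.69 and 2.78 in BSM. These did not overlap, with an exact two-sided permutation p of 0.1, the smallest that 3 libraries against 3 can give (0.117 after Benjamini-Hochberg adjustment over the 7 ratios computed). By FPKM the ratio was 1.61, 1.08 and 1.35 in BMDM and 6.22, 0 and 3.36 in BSM, with overlap through the 0 of replicate 2 (exact permutation p = 0.4). A ratio of this kind is free of the scaling between libraries. As the length basis of the ALEXA-Seq values is not given in the sources used here, only its difference between the cell types was read.

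Itga4 (chr2:79095583-79173280, plus strand) encodes alpha 4, which pairs with beta 1 to form VLA-4 and with beta 7 to form the receptor for MAdCAM-1. It had the largest called log2 fold change in favor of BMDM on the log2(FPKM + 1) scale, whereas with a pseudocount of 0.1 Itgal (6.40) and Itgb7 (6.30) were above it (5.98), as they were by ALEXA-Seq. Its FPKM was 46.6, 29.4 and 40.5 in BMDM and 1.20, 0.247 and 0.394 in BSM. No library of one cell type came near the other, and the ratio of the mean FPKM, 38.9 ± 8.70 (SD, n = 3) to 0.615 ± 0.515 (SD, n = 3), was 63.2. Without BSM replicate 1, which had the most Itga4 of the BSM libraries, this ratio was 121. Its log2 fold change was 4.65 (SE 0.31, adjusted p = 2.26e-05, limma), and 4.48 to 4.89 with each library left out in turn. By ALEXA-Seq it was 5.08 (SE 0.44, adjusted p = 0.000195, limma). Itga4 shares exon sequence on the opposite strand with Cerkl in GENCODE M21, amounting to 11.6% of the longest Itga4 transcript. Whether counting used the strand is not given in the sources used here. Cerkl was itself called higher in BMDM (log2 fold change 3.52, adjusted p = 0.00402, limma). The part of this overlap in either value was not tested.

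Itgb7 (chr15:102046426-102062366, minus strand) encodes beta 7, known from lymphocytes that home to the gut. Its FPKM was 6.80, 9.10 and 8.68 in BMDM and 0, 0.0101 and 0.00446 in BSM. It was measured in every BMDM library and was at or near 0 in every BSM library. Between the cell types the log2 fold change was 3.18 (SE 0.24, adjusted p = 4.02e-05, limma) by FPKM and 6.97 (SE 0.41, adjusted p = 6.00e-05, limma) by ALEXA-Seq. The sum of lymphocyte markers was highest in BMDM replicate 2 (Nkg7 5.33, Cd79a 2.22 and Cd3e 0.828 FPKM), where Itgb7 was at 9.10 FPKM. In BMDM replicate 1 these markers were at 0.291, 0.115 and 0 FPKM, Cd79b at 0.153 and Ms4a1 at 0.0762 FPKM. Itgb7 was at 6.80 FPKM there. The part of lymphocyte transcripts in the Itgb7 values was not tested.

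Itgb1 (chr8:131209554-131257100, plus strand) encodes beta 1, the partner of alpha 4, alpha 6 and alpha v among many alpha chains. Its FPKM was 31.8, 40.6 and 37.8 in BMDM and 10.4, 30.1 and 27.7 in BSM. All BMDM libraries lay above all BSM libraries by a small margin, and BSM replicate 1 was well below the other BSM libraries. The log2 fold change of 0.80 (SE 0.39, adjusted p = 0.12, limma) did not pass and was -0.01 relative to the median of all tested genes. Its sign depended on the scaling, at -0.03 with upper quartile scaling and -0.47 with the same sum. Between the male libraries, replicate 1 of each cell type, the difference was 1.53, and between the female libraries 0.43. With 1 male library in each cell type, this difference between the sexes was not tested. The male BSM library is also the one with the lowest listed RNA integrity, so sex and RNA quality cannot be told apart here. In the ALEXA-Seq table the cell types overlapped, at 448, 587 and 533 against 169, 459 and 436.

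Itga6 (chr2:71583673-71696473, plus strand) encodes alpha 6, a laminin receptor chain. It was at 1.31, 3.03 and 2.41 FPKM in BMDM and at 22.2, 41.0 and 45.0 FPKM in BSM. All BSM libraries lay above all BMDM libraries, with the lowest BSM value in replicate 1. The mean FPKM was 2.25 ± 0.872 (SD, n = 3) for BMDM and 36.1 ± 12.2 (SD, n = 3) for BSM, a ratio of 16.0 in favor of BSM. On the log2 scale the fold change was -3.49 (SE 0.35, adjusted p = 0.000151, limma), or -4.29 relative to the median of all tested genes. By ALEXA-Seq it was -4.00 (SE 0.41, adjusted p = 0.000392, limma).

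Itgav (chr2:83564554-83647073, plus strand) encodes alpha v, which binds vitronectin and the latent form of TGF-beta. It was present in both cell types, at 14.8, 7.30 and 9.89 FPKM in BMDM and 33.5, 38.6 and 45.7 FPKM in BSM. The cell types did not overlap, and the ratio of the means, 39.2 ± 6.16 (SD, n = 3) in BSM to 10.6 ± 3.78 (SD, n = 3) in BMDM, was 3.69. The log2 fold change was -1.83 (SE 0.29, adjusted p = 0.00154, limma) by FPKM and -1.96 (SE 0.26, adjusted p = 0.00117, limma) by ALEXA-Seq. It was -1.13 between the male libraries and -2.18 between the female libraries, with 1 male library in each cell type, and this difference was not tested. Sex cannot be told apart here from the low RNA integrity of the male BSM library. Itgav shares exon sequence on the opposite strand with Gm13684, though 0.0% of its longest transcript had a near-identical copy in another gene.

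Itgb5 (chr16:33829751-33949239, plus strand) encodes beta 5, which pairs with alpha v alone and is known for the uptake of apoptotic cells and photoreceptor debris. Its FPKM was 0.461, 0.482 and 0.710 in BMDM and 14.9, 12.2 and 11.4 in BSM. Each group was narrow and the groups lay far apart, with a ratio of means of 23.3 in favor of BSM. The log2 fold change was -3.15 (SE 0.23, adjusted p = 3.38e-05, limma) by FPKM and -4.50 (SE 0.32, adjusted p = 0.000104, limma) by ALEXA-Seq. Of the longest Itgb5 transcript 10.5% has a near-identical copy in another gene, the highest share among the 10 members outside overlapping genes.

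**Figure D2:**
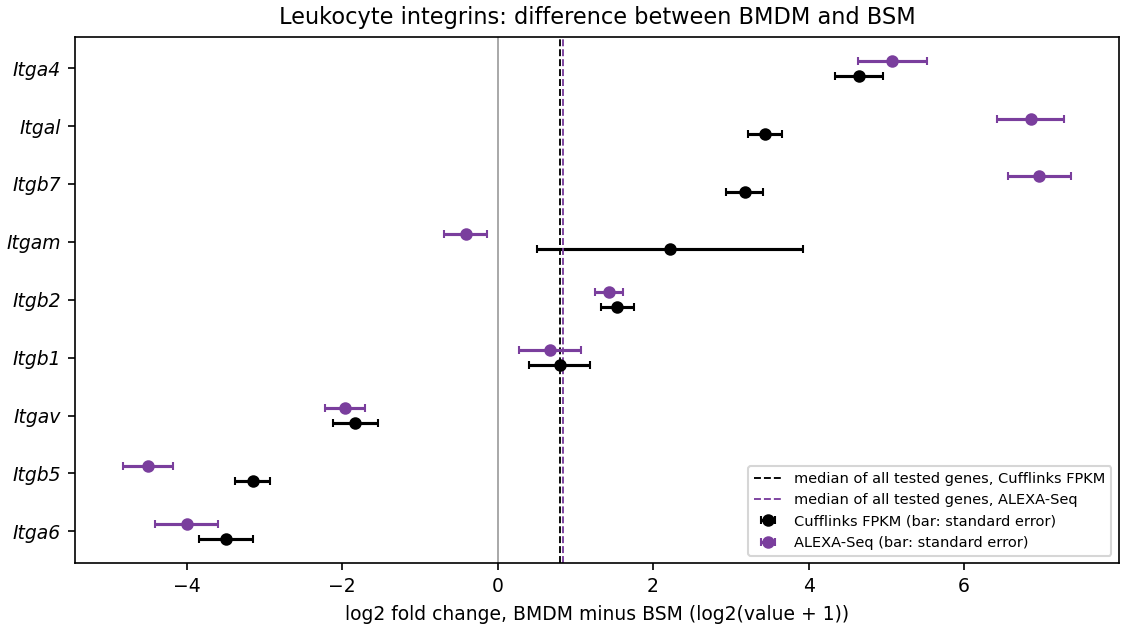
Log2 fold change, BMDM minus BSM, of the 9 tested leukocyte integrins by FPKM (black) and ALEXA-Seq (purple), with SEs as bars and the median of all tested genes as dashed lines. Itgb1 lies on the median of 0.81, Itgb2 at 1.54 lies between it and the strongly different Itgal, Itga4 and Itgb7, and the wide bar of Itgam by FPKM (SE 1.71) comes with its value of 0 in BSM replicate 2.

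FPKM are per length, so the members can be set in order within a cell type. In BMDM the order by level was Itgam, Itgb2, Itga4, Itgb1, Itgav, Itgal, Itgb7, Itga6, Itgb5 and Itgax. Neighbors overlapped in their ranges over the 3 libraries only for Itga4 and Itgb1 and for Itgav and Itgal. In BSM the order by mean FPKM was Itgam, Itgav, Itga6, Itgb2, Itgb1, Itgb5, Itga4, Itgax, Itgal and Itgb7. There every neighboring pair from Itgam to Itgb5 overlapped, and Itgb5 at 11.4 to 14.9 FPKM was clear of Itga4 at 0.247 to 1.20 FPKM.

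The share of each chain within a library is also free of the scaling between libraries. Of the summed FPKM of 9 beta subunit genes, Itgb2 took 66.7%, 65.7% and 64.8% in BMDM and 52.3%, 43.7% and 42.0% in BSM. Itgb5 took 0.375%, 0.312% and 0.500% in BMDM and 27.5%, 15.4% and 16.0% in BSM. Itgb7 took 5.54%, 5.89% and 6.11% in BMDM and at most 0.0127% in BSM. None of these 3 overlapped, each with an exact two-sided permutation p of 0.1 (0.133 after Benjamini-Hochberg adjustment over the 4 beta subunits). Itgb1 took 25.9%, 26.3% and 26.6% in BMDM and 19.1%, 37.9% and 38.9% in BSM, with overlap (exact permutation p = 0.4). In BSM replicate 1 the share of Itgb1 was lower and those of Itgb5 and Itgb2 were higher than in the other BSM libraries, while its FPKM of Itgb2 was the lowest of the 3.

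Of the summed FPKM of 17 alpha subunit genes, Itga4 took 22.1%, 17.6% and 20.6% in BMDM and 0.507%, 0.289% and 0.201% in BSM. Itgal took 4.69%, 5.94% and 5.29% in BMDM and at most 0.0297% in BSM. Itga6 took 0.620%, 1.81% and 1.22% in BMDM and 9.37%, 47.9% and 22.9% in BSM, and Itgav 6.99%, 4.36% and 5.02% against 14.1%, 45.0% and 23.3%. The high values in BSM replicate 2 stand beside the value of 0 of Itgam there. Without that library the mean BSM share was 16.2% for Itga6 and 18.7% for Itgav, both above every BMDM library. These 4 subunits had an exact two-sided permutation p of 0.1 each (0.12 adjusted over the 6 alpha subunits). Itgam took 62.4%, 65.4% and 63.1% in BMDM and 74.4% and 51.2% in BSM replicates 1 and 3. With the 0 of BSM replicate 2 included, its exact permutation p was 0.5. Itgax took at most 0.143% in BMDM and 0.228% in BSM. Low as it was, Itgax had the same exact permutation p of 0.1 (0.12 adjusted) by FPKM. By ALEXA-Seq its shares overlapped (exact permutation p = 0.5).

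Chains that compete for a partner or share one were also set against each other, as ratios of FPKM. Itgb5 to Itgb1 was 0.0145, 0.0119 and 0.0188 in BMDM and 1.44, 0.406 and 0.412 in BSM. Itga4 to Itgav was 3.16, 4.03 and 4.10 in BMDM and 0.0360, 0.00642 and 0.00861 in BSM. The ratio of Itgav to Itgb5 was 32.0, 15.1 and 13.9 in BMDM and 2.24, 3.16 and 4.00 in BSM, so the level of the beta 5 chain lay closer to that of its alpha partner in BSM. None of these ratios overlapped between the cell types, each with an exact two-sided permutation p of 0.1 (0.175 adjusted over the 7 ratios). In 1 further ratio, Itgb2 to Itgb1, the cell types overlapped, at 2.57, 2.50 and 2.44 in BMDM and 2.73, 1.15 and 1.08 in BSM (exact permutation p = 0.4).

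**Figure D3:**
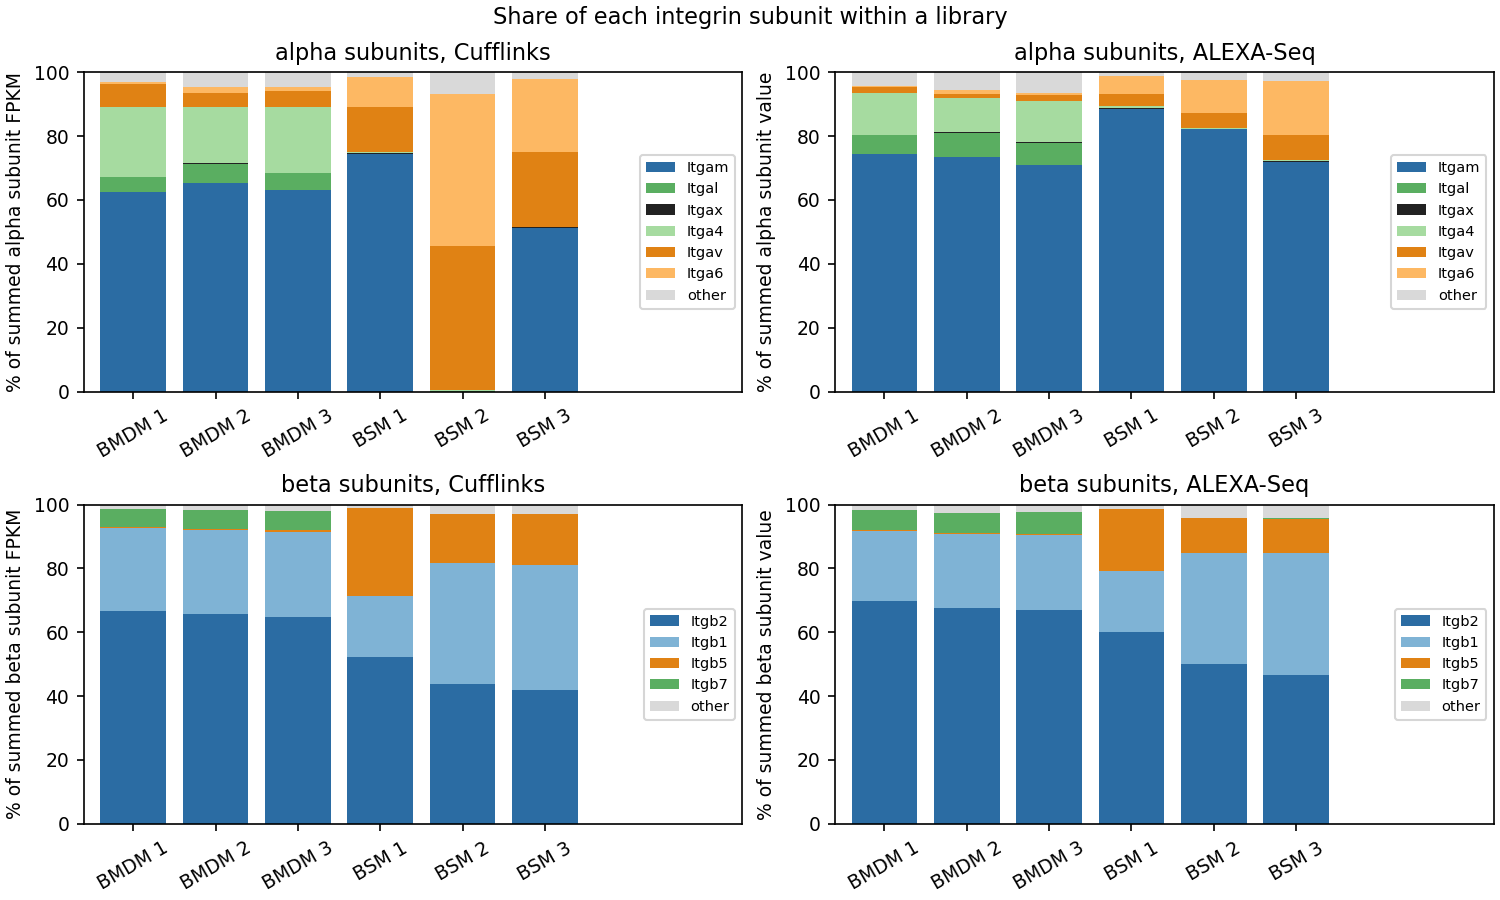
Share of each subunit in the summed alpha (top) and beta (bottom) subunit values of a library, by FPKM (left) and ALEXA-Seq (right), 1 bar per library. Itga4, Itgal and Itgb7 take larger shares in BMDM, and Itga6, Itgav and Itgb5 larger shares in BSM, with Itgav present in both, and the Itgam segment missing from BSM replicate 2 by FPKM is present by ALEXA-Seq.

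The tested genes closest to Itga4 over the 6 libraries, by Euclidean distance on log2(FPKM + 1), were Cd44 (distance 0.90), the receptor for hyaluronan, Ms4a4c (1.19) and Iqgap2 (1.31), a cytoskeletal scaffold. Cd44 was at 43.2, 39.0 and 43.3 FPKM in BMDM and 0.269, 0.253 and 0.317 FPKM in BSM. The genes closest to Itga6, the member with the largest called log2 fold change in favor of BSM on this scale (Itgb5 with a pseudocount of 0.1 or by ALEXA-Seq), were Mgat4a (0.88), a glycosyltransferase, Frmd4b (0.91) and Ctsl (1.13), a lysosomal protease. Mgat4a was at 1.13, 1.94 and 2.05 FPKM in BMDM and 36.1, 48.7 and 42.5 FPKM in BSM.

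Of the 17 other integrin subunit genes 16 were found in the Cufflinks table and 2 reached the FPKM minimum. Itga1, which encodes the collagen receptor chain alpha 1, was at 4.11, 5.52 and 6.30 FPKM in BMDM and was listed at 0 in all 3 BSM libraries (log2 fold change 2.64, SE 0.27, adjusted p = 0.000173 by limma). Itga9, whose alpha 9 chain binds tenascin-C and VCAM-1, was at 0.0240, 0 and 0.0161 FPKM in BMDM and 3.37, 4.98 and 3.76 FPKM in BSM (log2 fold change -2.30, SE 0.28, adjusted p = 0.000386 by limma). Both had no overlap, beside 66.8% of all tested genes. Each reached the minimum only through the cell type where it was high, so the lack of overlap adds no support. Of the 14 below the minimum, 12 stayed under 1 FPKM in every library. The exceptions were Itgb3, beta 3, the other common partner of alpha v on myeloid cells and platelets, at 1.81, 2.70 and 2.76 FPKM in BMDM and 0.544, 2.39 and 2.21 FPKM in BSM, and Itga8, at 1.71, 0.954 and 1.77 FPKM in BMDM and at most 0.00242 in BSM.

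Of 30 genes that activate integrins or link them to the cytoskeleton 21 were tested. By limma 14 of them were higher in BMDM, beside 45.3% of all tested genes. In BSM 0 were higher, beside 9.22% of all tested genes, and also 0 at an unadjusted p under 0.05. By ALEXA-Seq the counts were 14 and 1, beside 37.1% and 10.9% of all tested genes. The 1 was Apbb1ip, the Rap1 effector RIAM (log2 fold change -0.71). The median of their log2 fold changes was 1.09, beside 0.81 for all tested genes. This count depended on the scaling. With upper quartile scaling, quantile normalization or the same sum, 5 were higher in BMDM each time, beside 21.7%, 21.7% and 15.2% of all tested genes. In these fits 1, 1 and 2 were higher in BSM, beside 16.5%, 19.3% and 24.9% of all tested genes. The 3 with the largest difference were Flna, Rasgrp2 and Vcl. Flna, filamin A, which binds beta chain tails and crosslinks actin, was at 51.5, 72.0 and 56.4 FPKM in BMDM and 1.41, 1.95 and 2.30 FPKM in BSM (log2 fold change 4.40, SE 0.25, adjusted p = 9.59e-06 by limma). Rasgrp2, the exchange factor that activates Rap1, was at 7.91, 22.7 and 12 FPKM in BMDM and 0, 0.0146 and 0.00828 FPKM in BSM (log2 fold change 3.80). Vcl, vinculin, which joins talin to actin, was at 7.97, 11.4 and 12.1 FPKM against 0.0267, 0.273 and 0.225 FPKM (log2 fold change 3.27).

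Of 27 integrin ligand genes 7 were tested, of which 3 were higher in BMDM, 3 were higher in BSM and Vcam1 did not pass. Of all tested genes 45.3% and 9.22% were called in these directions. The median of the ligands' log2 fold changes was 0.92, beside 0.81 for all tested genes. By ALEXA-Seq 8 ligands were tested and 3 and 3 were called, beside 37.1% and 10.9% of all tested genes. Fn1, fibronectin, bound by alpha 4 and alpha v integrins, was at 121, 134 and 135 FPKM in BMDM and 0.0263, 0.0296 and 0.0298 FPKM in BSM (log2 fold change 6.99). C3, whose cleaved form binds CR3, was at 43.4, 60.7 and 55.1 FPKM in BMDM and at most 0.0396 FPKM in BSM (log2 fold change 5.71). Tgfb1, whose latent form binds alpha v integrins, had a log2 fold change of 1.41 (limma adjusted p = 0.0282). It was not called under any of the 3 scalings, nor without BMDM replicate 2 or 3. In the other direction F11r, junctional adhesion molecule A and a ligand of LFA-1, was higher in BSM by a log2 fold change of -6.57. Jam2, a ligand of alpha 4 beta 1, was at 0.0351, 0.0184 and 0.185 FPKM in BMDM and 11.8, 9.79 and 9.49 FPKM in BSM (log2 fold change -3.39). Icam1, the ligand of LFA-1 and CR3, was at 1.78, 1.79 and 1.86 FPKM in BMDM and 2.57, 5.47 and 4.16 FPKM in BSM (log2 fold change -0.81, SE 0.28, adjusted p = 0.0409 by limma). Its call was lost with a replicate block and without each library in turn other than BSM replicate 1. F11r and Jam2 were thus high in BSM, where Itgal and Itga4 were low, and Fn1 was high in BMDM, where Itga4 was high. Fn1 and Tgfb1 were higher in BMDM, whereas Itgav was higher in BSM. C3 was higher in BMDM, whereas Itgam was not called. Ligands and chains went the same way in some pairs and not in others, which was not tested.

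**Figure D4:**
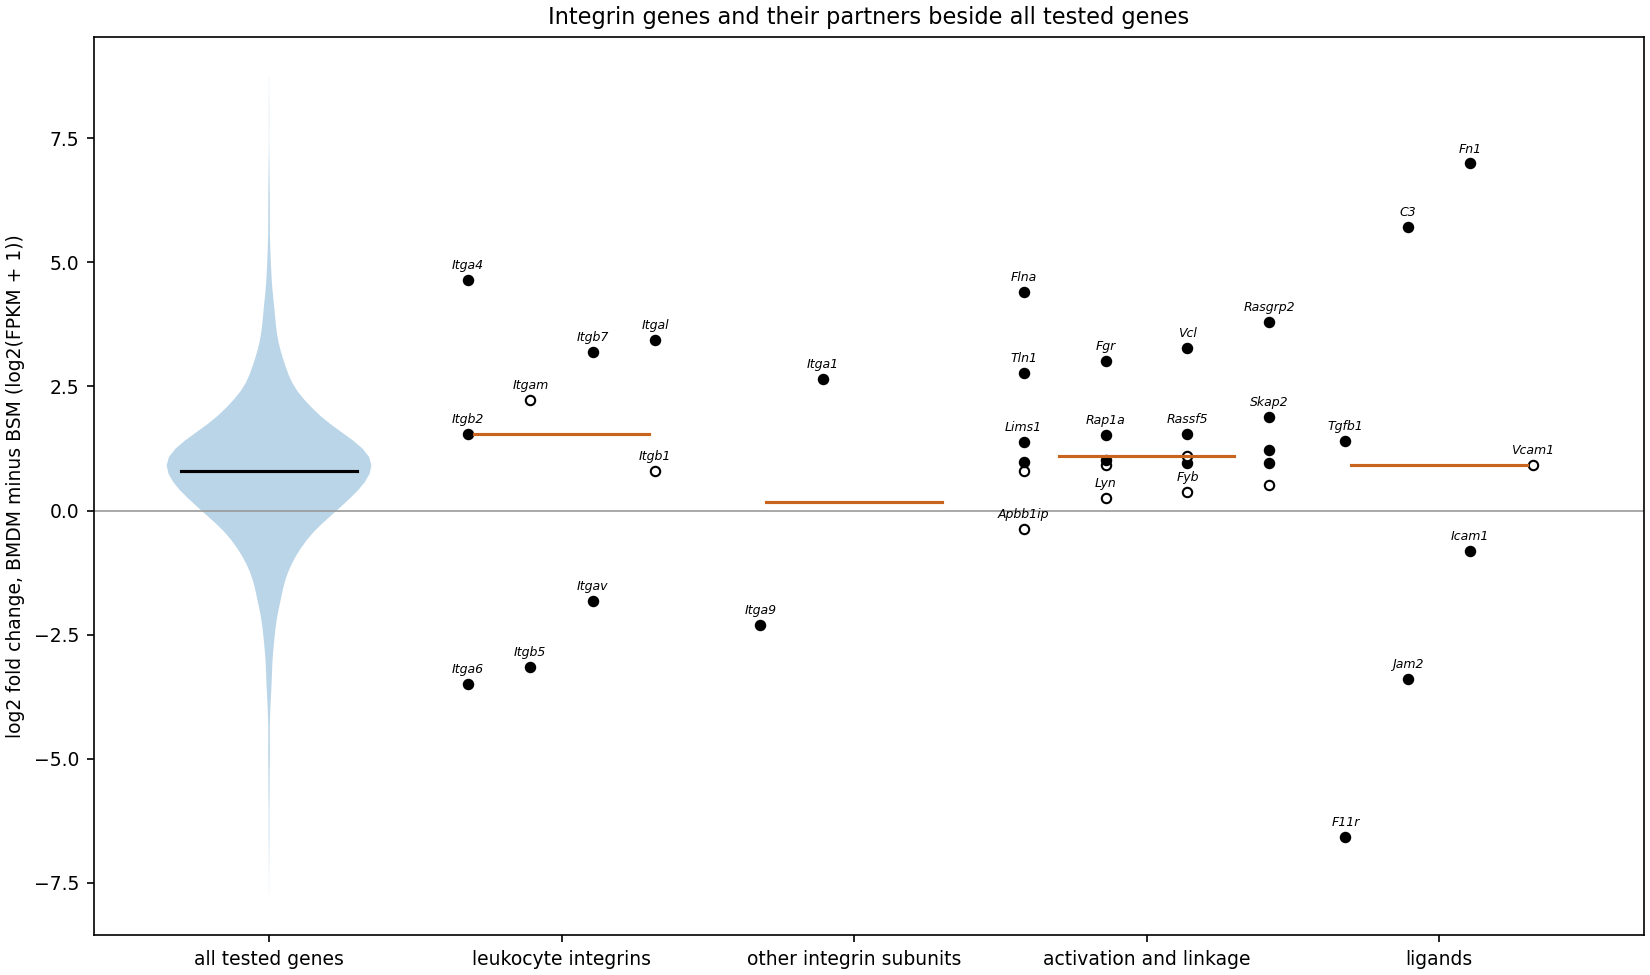
Log2 fold change, BMDM minus BSM, of the tested genes of each list beside the distribution of all tested genes (blue, with its median of 0.81 as a black line). Filled points passed a limma adjusted p under 0.05, open points did not, orange lines are list medians, and crowded activation genes are drawn without names. The activation and linkage genes sit mostly above 0, with Flna highest, whereas integrins and ligands spread in both directions.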

How the data were processed

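RNA-Seq of 3 BMDM and 3 BSM libraries was used. The authors deposited an FPKM for each gene from Cufflinks, after TopHat alignment. The submitters' processing notes name CASAVA 1.7.0, TopHat 1.3.1, Bowtie 0.12.7, Cufflinks 1.0.3 and mm9. The deposited ALEXA-Seq expression signal comes from the same libraries, and its normalization is not given in the sources used here. Neither table holds read counts, so the number of reads behind a value is unknown from the tables, and the read totals that the study lists per library were not used here. Gene spans equal those of GENCODE M21 for 7538 of 17762 genes matched by symbol if starts are counted from 0, and for 265 if from 1, so 1 was added to each start.

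Groups, replicate numbers, sex and age were taken from the sample labels. Genes reaching 3 FPKM in any library, 6364 in all, were tested on log2(FPKM + 1) with limma 3.58.1 (R 4.3.3, moderated with a trend of variance on mean), with Benjamini-Hochberg adjustment over all of them. As many genes by highest ALEXA-Seq value were tested likewise. The study counts its libraries as independently generated biological replicates. Shares and ratios were compared with exact two-sided permutation tests (scipy 1.17.1), which cannot go below 0.1 for 3 against 3. The alternatives tried were 3 scalings, a minimum of 1 FPKM, no minimum, 0.1 as pseudocount, moderation without the trend, a replicate block, and each library left out in turn. The fit was checked with simulated data before use. A near-identical copy was a stretch of 100 bases or more with 95% identity to a transcript of another gene in GENCODE M21 (blastn 2.17.0).

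The members and the gene lists were chosen with earlier results of these data known. All members are named. Of the other integrin subunits, those reaching the FPKM minimum are given with values, and the exceptions among the rest, Itgb3 and Itga8, were named after their values were seen. In the activation and ligand lists up to 3 called genes in each direction with the largest log2 fold change are named, and for the member with the largest called difference in each direction the 3 nearest genes. Python 3.11.15 was used with numpy 2.4.6, pandas 2.3.3 and matplotlib 3.10.9.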

Additional observations from a re-analysis of the deposited data

Results flagged for a closer look

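By FPKM, Itgam was lower in BMDM than in BSM between the male libraries (log2 fold change -0.42) and higher in both female BMDM libraries than in both female BSM libraries (3.55), so the sexes moved in opposite directions. The difference between the sexes was not tested, and sex cannot be told apart from the low RNA integrity of the only male BSM library. The female value includes BSM replicate 2, where Itgam is listed at 0, and by ALEXA-Seq the difference was -0.68 between the male and -0.28 between the female libraries.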

How the results depend on the processing

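The counts of members called by limma were 4 for BMDM and 3 for BSM in each table. For FPKM they held under every alternative except the same sum (3 and 3). For ALEXA-Seq the exceptions were quantile normalization (4 and 4, beside 22.6% and 21.2% of all tested genes) and the same sum (3 and 4, beside 13.2% and 30.2%). With no minimum the shares of all genes were 14.9% and 3.36% by FPKM and 10.5% and 3.83% by ALEXA-Seq. In the 6 fits that each lacked a library the member counts were 4 and 3 throughout. The shares of all genes in these fits were 32.0% to 50.2% and 7.24% to 11.6% by FPKM. By ALEXA-Seq they were 22.8% to 48.4% and 8.16% to 14.2%. Itgal, Itga4, Itga6, Itgav, Itgb5 and Itgb7 kept their direction and their call under every alternative run in both tables. Itgb2 lost its call with the same sum (0.24 by FPKM, 0.14 by ALEXA-Seq). Itgam by ALEXA-Seq gained one with quantile normalization (-1.24) and the same sum (-1.70). The log2 fold change of Itgam by FPKM ranged from -0.13, without BSM replicate 2, to 3.60, without BSM replicate 1. Itgb1 changed sign with upper quartile scaling (-0.03) and the same sum (-0.47) by FPKM, and with quantile normalization (-0.03) and the same sum (-0.60) by ALEXA-Seq, and passed the threshold in none of these. The scalings move the median of all genes by construction. The difference in the Itgam share of alpha subunits, 21.8 percentage points by FPKM, was -7.85 by ALEXA-Seq, where Itgam is not at 0 in BSM replicate 2. That of Itga4 fell from 19.7 to 12 points, that of Itga6 went from -25.5 to -10.2 and that of Itgav from -22.0 to -3.88. Among the other integrin subunits 2 were higher in BMDM at an FPKM minimum of 1 and 3 with no minimum, against 1, as more genes were tested. The shares of all genes were 37.2%, 14.9% and 45.3%. Of the activation and linkage genes 5 in place of 14 were higher in BMDM under the 3 scalings, beside 21.7%, 21.7% and 15.2% of all tested genes. With no minimum or without BSM replicate 1, 1 was higher in BSM, beside 3.36% and 11.6% of all tested genes. Same-numbered samples did not all deviate together (correlations of -0.0195, -0.00836 and 0.134 by FPKM and 0.0154, 0.0428 and 0.104 by ALEXA-Seq), so the numbers were not taken to pair them. A replicate block left the member counts at 4 and 3 and gave 3471 calls by FPKM, against 3470, and 2885 by ALEXA-Seq, against 3050. Of the ligands, Tgfb1 was not called under 7 of 14 alternatives (adjusted p from 0.0106 to 0.478 by limma) and Icam1 under 8 of 14 (0.00123 to 0.164), the replicate block among them, whereas Fn1, C3, F11r and Jam2 were called under all 14. The tables hold no read counts, so values near 0 were given no floor.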
